A study of Mus musculus with 6 samples.

Results

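Chemokines are small secreted proteins that direct the movement of blood and bone marrow cells along a gradient, and they act through membrane receptors that couple to the inhibitory G protein Gi. The CXC, CC, CX3C and XC families are named for the spacing of their first cysteines. Atypical receptors bind the same ligands without coupling to G proteins and clear or hold them. In bone, osteoclast precursors use such receptors to reach and leave the bone surface, and stromal cells keep blood progenitors in the marrow by secreting Cxcl12. The genes described here are every chemokine, chemokine receptor and atypical receptor that the array names by its family symbol (Ccl, Cxcl, Ccr, Cxcr and Ackr with a number, Xcl1, Xcr1, Cx3cl1, Cx3cr1, Ccrl2, Pf4 and Ppbp). There were 62 such genes of 37074 gene names, covered by 86 probes. They comprise 38 ligands, 19 receptors and 5 atypical receptors.

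The study compared osteoclast cultures from Ctsk-Cre;Ano1fl/fl mice with cultures from Ano1fl/fl littermates, using 3 mice and 3 one-colour Agilent arrays per genotype. Both genotypes carry the floxed allele of Ano1, which encodes the calcium-activated chloride channel Anoctamin 1. The Cre recombinase is driven by the gene of cathepsin K, a protease that osteoclasts make as they mature, so the deletion is meant for that lineage and not for other cells of the dish. The marrow came from tibias and femurs of mice aged 6 to 8 weeks, of lines mostly backcrossed to C57BL/6, and the cells had RANKL, the cytokine that drives osteoclast formation, for 5 days. The labels' titles call the samples osteoclasts, and their cell type field says bone marrow cells.

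The arrays shared 1 slide and 1 scan, with 33480 to 34951 spots well above background per array and no saturated spot. The targeted gene could not check the labels. Its single probe gave processed signals of 3.28, 3.22 and 3.91 on the Ano1fl/fl arrays and 3.23, 3.25 and 3.81 in Ctsk-Cre;Ano1fl/fl, and none was well above background. Each direction is therefore that of the arrays as labelled. Marker genes of several lineages also differed between the genotypes, and their counts stand beside shares of 23.0% higher and 28.5% lower among all genes tested. All 10 osteoclast markers rose, with a summed normalised intensity of 143720 to 156450 on the Ano1fl/fl arrays and 502040 to 564780 on the Ctsk-Cre;Ano1fl/fl arrays. The study describes osteoclast markers as lower in cells of that genotype, so these arrays run against it, and whether the labels are in the right order could not be settled here. This doubt applies to every direction given below. Stromal markers rose in 11 of 12 cases (summed intensity 23401 to 25340 against 92089 to 135910) and B cell markers in 5 of 5 (6314 to 7793 against 22680 to 43441). Megakaryocyte and platelet markers fell in 7 of 8 (6691 to 8172 against 2735 to 3239) and mast cell and basophil markers in 5 of 6 (7013 to 9324 against 903 to 3649). None of the markers of these lineages was below background on every array. RNA was taken from whole cultures, so fewer cells of a type and less RNA per cell cannot be told apart.

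Values below are log2 normalised intensities of a gene's brightest probe, a scale on which 1 unit is a 2-fold difference and on which different genes cannot be ranked by level. Differences are Ctsk-Cre;Ano1fl/fl minus Ano1fl/fl, given with their standard error, and adjusted p-values come from limma over all 31848 probes tested. A gene is said to have risen or fallen where the adjusted p was under 0.05. With 3 arrays against 3, an exact permutation test of a single gene cannot go below p = 0.1, so only the fit across all probes was used.

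The promoters of the neutrophil-attracting ligands are shown first because Cxcl1 rose more than any other member that exceeded background in both genotypes, and the cluster also holds 2 genes that fell. The stretches are the 150 bases before the RefSeq start site (GRCm38.p6), each read 5′ to 3′ on the transcribed strand, and capitals mark matches to the 10-base consensus of NF-kappa B, the factor that inflammatory cytokines and RANKL activate. Cxcl1 lies at chr5:90891095-90891244, Cxcl2 at chr5:90903749-90903898, Cxcl3 at chr5:90785951-90786100 and Ccl20 at chr1:83116616-83116765, all on the plus strand. Ppbp at chr5:90768368-90768517 and Pf4 at chr5:90772285-90772434, also on the plus strand, are the neighbours that fell.
Cxcl1: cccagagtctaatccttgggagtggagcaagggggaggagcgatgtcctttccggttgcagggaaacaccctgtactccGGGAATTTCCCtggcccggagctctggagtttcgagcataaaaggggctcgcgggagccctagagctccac
Cxcl2: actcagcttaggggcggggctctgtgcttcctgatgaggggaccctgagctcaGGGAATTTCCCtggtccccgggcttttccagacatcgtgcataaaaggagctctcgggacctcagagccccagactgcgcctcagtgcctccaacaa
Cxcl3: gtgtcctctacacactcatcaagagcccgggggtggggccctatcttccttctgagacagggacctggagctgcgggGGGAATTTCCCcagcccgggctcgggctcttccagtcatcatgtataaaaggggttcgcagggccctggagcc
Ccl20: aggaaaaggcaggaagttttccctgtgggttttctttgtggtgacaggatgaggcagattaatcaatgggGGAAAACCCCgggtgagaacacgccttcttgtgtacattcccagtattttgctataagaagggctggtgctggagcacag
Ppbp: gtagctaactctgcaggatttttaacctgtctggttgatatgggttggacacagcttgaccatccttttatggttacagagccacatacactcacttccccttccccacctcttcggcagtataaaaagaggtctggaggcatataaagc
Pf4: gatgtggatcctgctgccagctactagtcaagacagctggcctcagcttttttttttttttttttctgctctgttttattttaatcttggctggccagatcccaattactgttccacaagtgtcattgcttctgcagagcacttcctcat

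The promoters of Cxcl1, Cxcl2 and Cxcl3 shared a run of 11 bases, GGGAATTTCCC, which begins 71 bases before the start in Cxcl1, 97 in Cxcl2 and 73 in Cxcl3. It reads on both strands as a match, and 14 of 32851 promoter windows in the RefSeq table held it within the 250 bases before the start. The consensus itself, searched on both strands of those 250 bases, was found in 12 of the 47 chemokine and receptor genes that have an entry and in 8.23% of the 27025 genes in the table. The 12 were Cxcl1, Cxcl2, Cxcl3, Cxcl10, Ccl1, Ccl9, Ccl20, Ccr1, Ccr3, Ccr6, Ackr2 and Ccrl2. Of the 11 that were tested (Ccr1 was too dim), 8 rose and 2 fell, beside 25 and 18 of the 50 members tested and 23.0% and 28.5% of all genes tested. The sequences of Ppbp and Pf4 held no match in this window. For comparison, the TATA box (TATAAA) was found in 15 of 47 genes and 14.3% of all genes, the AP-1 motif (TGANTCA) in 6 of 47 and 7.82%, and the interferon-stimulated response element in Ccl19, Cxcl10 and Cxcl14 and 3.46% of all genes. A match describes these letters only and is not a measured binding site. The 15 genes with no entry in the table include Ccl2, Ccl4, Ccl5, Ccl7, Ccl11, Ccl24, Ccl26, Ccr7, Ccr10, Cxcl5, Cxcl11, Cxcl16, Cxcl17 and Cxcr5.

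Of the 62 genes, 50 exceeded background clearly on each of the 3 arrays of one genotype or both and were tested, 40 of them on all 6 arrays. Of these 50, 25 rose and 18 fell, while among all 20645 genes tested 23.0% rose and 28.5% fell. Past 2-fold, 21 rose and 11 fell, against 9.89% and 7.19% of all genes tested. The median difference of the 50 was 0.51, beside -0.06 over all genes tested. The arrays of the genotypes did not overlap for 43 of the 50, where 64.0% of all genes tested did not. Ligands rose in 15 and fell in 10 of 30 tested, and receptors rose in 7 and fell in 7 of 16. Atypical receptors rose in 3 and fell in 1 of 4. Among the members past 2-fold, 13 ligands rose and 4 fell, while 5 receptors rose and 6 fell.

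**Figure D1:**
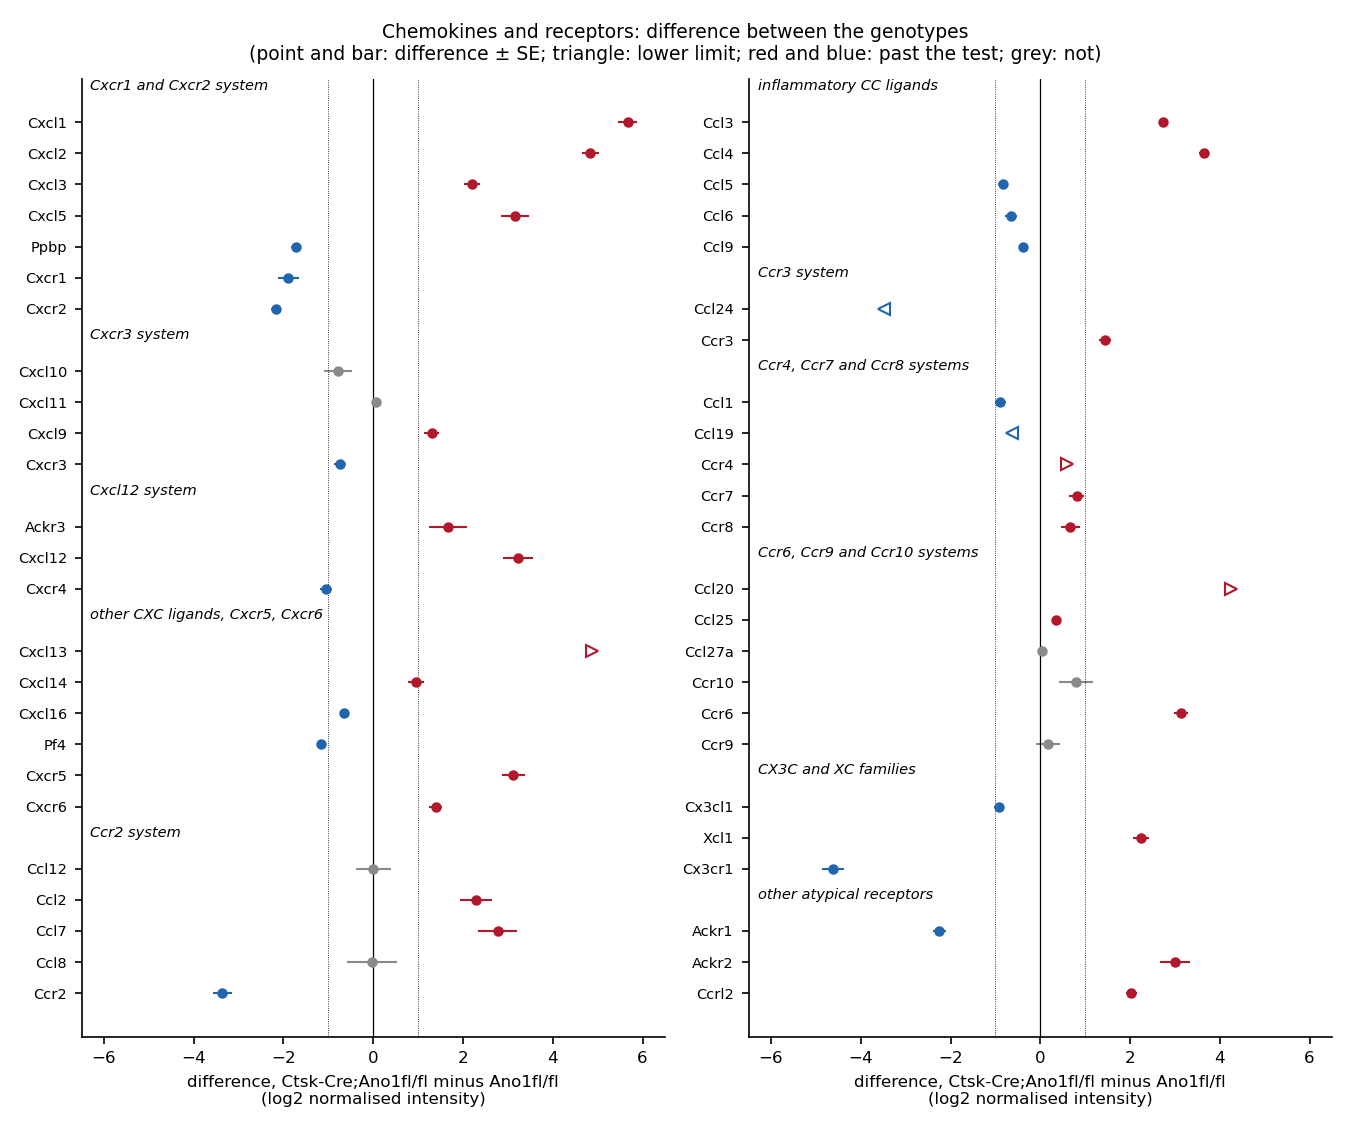
Difference between the genotypes for 49 tested chemokine and receptor genes, grouped by receptor system. The x axis is Ctsk-Cre;Ano1fl/fl minus Ano1fl/fl in log2 normalised intensity, bars are standard errors, triangles are lower limits for the 5 genes not above background in 1 genotype, and dotted lines mark 2-fold. Cxcl1 (5.67) lies farthest to the right and Cx3cr1 (-4.62) farthest to the left.

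In 5 genes, the brightest probe stayed near background on the 3 arrays of one genotype. For these, only a lower limit of the fold is given, computed against the lowest signal that counted as above background. With all of them at that limit, the counts past 2-fold became 20 higher and 10 lower, since Ccr4 and Ccl19 have limits of 1.52-fold and 1.54-fold. The median over the 50 genes became 0.48. These limits hold for the processed signal as used here. For dim genes the size of a difference depended on the background correction. Under normexp correction the log2 differences of Ccl20, Cxcl13 and Ccl24 were 2.42, 2.76 and -1.78, smaller than their limits of 4.24, 4.87 and -3.49, and those of Ccr4 and Ccl19 were 0.49 and -0.39. Ackr1, Ackr2, Ackr3, Cxcr1, Cx3cl1 and Ccl1 shrank likewise, to -1.01, 1.36, 0.37, -0.87, -0.54 and -0.24, and all of these genes still passed the test. Cxcl1, Cxcl2 and Cxcl12 shrank to 4.80, 4.04 and 2.26. With all probes of a gene averaged, Ackr2 gave 1.77 and Ccr4 1.35. Within a genotype the arrays were close for most genes, with a median SD of 0.17 on the Ano1fl/fl arrays and 0.24 on the Ctsk-Cre;Ano1fl/fl arrays. The widest SDs were 1.14 for Ccl24 in Ano1fl/fl and 1.13 for Ccl8 in Ctsk-Cre;Ano1fl/fl.

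Of the CXC ligands that call neutrophils through Cxcr2, Cxcl1, Cxcl2, Cxcl3 and Cxcl5 rose and Ppbp fell, and both of their receptors fell. Cxcl1 was 6.09, 6.40 and 6.15 in Ano1fl/fl and 12.07, 12.18 and 11.41 in Ctsk-Cre;Ano1fl/fl. All arrays of the second genotype lay far above those of the first, a 50.8-fold rise (difference 5.67 ± 0.22, adjusted p = 1.52e-05). Cxcl2 was 6.33, 6.61 and 6.04 against 11.30, 11.34 and 10.85, a rise of 28.6-fold (4.84 ± 0.19, adjusted p = 1.67e-05), again with no overlap. Cxcl3, present at readily measured levels in both genotypes, was 10.12, 10.50 and 10.21 against 12.71, 12.58 and 12.12. Its rise of 4.59-fold was smaller (2.20 ± 0.18, adjusted p = 0.000215). Cxcl5 was 8.61, 8.38 and 8.34 against 12.20, 11.72 and 10.90, where the Ctsk-Cre;Ano1fl/fl arrays spread the most and none overlapped the controls (8.94-fold, 3.16 ± 0.31, adjusted p = 0.000438).

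Ppbp, the platelet basic protein that is cut to the neutrophil-activating peptide 2, did not follow them. It was 13.58, 13.89 and 13.94 in Ano1fl/fl and 12.07, 12.16 and 12.03 in Ctsk-Cre;Ano1fl/fl, a fall of 3.28-fold (-1.72 ± 0.12, adjusted p = 0.0001). Pf4, platelet factor 4, a CXC chemokine of platelet granules, also fell, from 16.74, 16.90 and 16.91 to 15.79, 15.55 and 15.73 (2.23-fold, -1.16 ± 0.10, adjusted p = 0.000239). Both kept clear of overlap between the genotypes. The megakaryocyte and platelet markers that fell beside them included Gp9 (-1.68 ± 0.11) and Gp1ba (-1.60 ± 0.13), and the part of that lineage in these values was not tested.

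Cxcr2, the main receptor of this group on neutrophils, was 9.98, 9.68 and 9.74 in Ano1fl/fl and 7.76, 7.57 and 7.55 in Ctsk-Cre;Ano1fl/fl. It fell 4.51-fold (-2.17 ± 0.11, adjusted p = 4.05e-05). Cxcr1, its close relative, was 7.29, 6.78 and 6.57 against 5.20, 5.11 and 4.66, again with no overlap (3.71-fold lower, -1.89 ± 0.23, adjusted p = 0.00088). Of the 10 neutrophil markers, 6 fell and 2 rose (28.5% and 23.0% of all genes tested), with a summed intensity of 330040 to 348190 in Ano1fl/fl and 234580 to 285110 in Ctsk-Cre;Ano1fl/fl and all 10 well above background on every array. The falls included Ly6g (-2.07 ± 0.18), the surface marker of mature neutrophils, and Retnlg (-3.68 ± 0.09). The granule genes Mmp8 (0.76 ± 0.09) and Ltf (0.33 ± 0.10) rose, while Camp (-0.12 ± 0.09) and S100a9 (0.20 ± 0.13) did not pass the test. Whether the change in receptors comes from these cells was not tested.

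**Figure D2:**
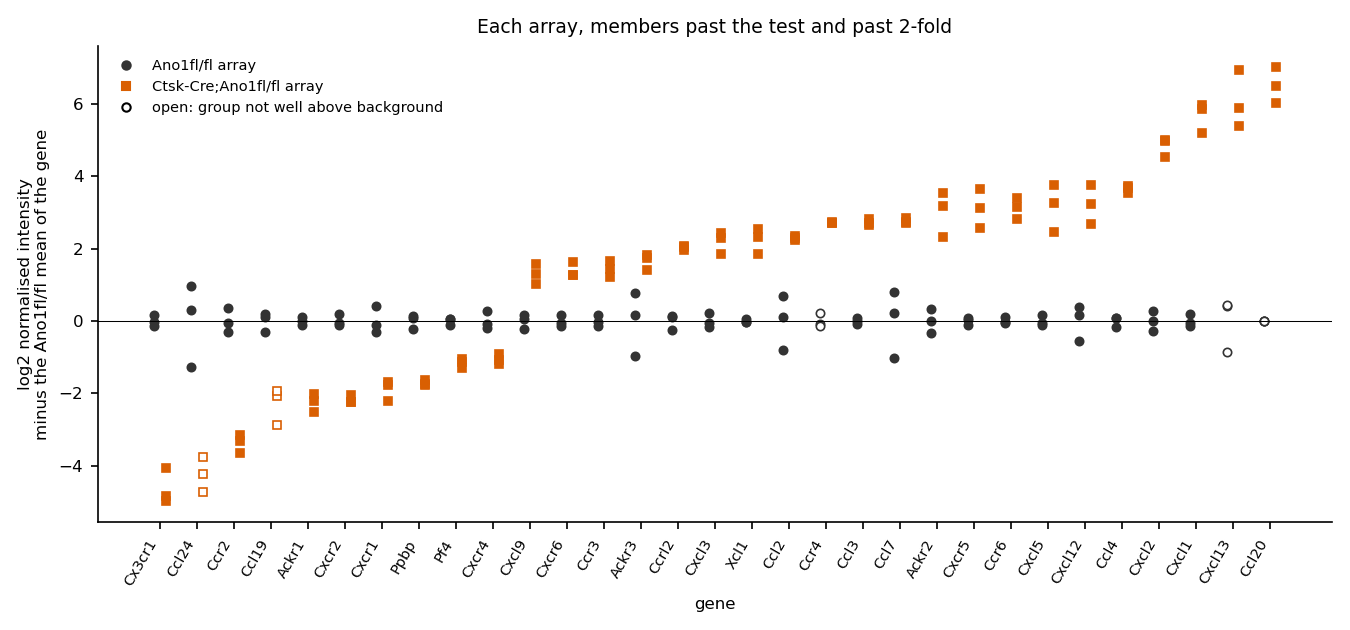
Every array for 31 chemokine and receptor genes past the test and past 2-fold, ordered by difference. The y axis is log2 normalised intensity minus the Ano1fl/fl mean of the gene; circles are Ano1fl/fl arrays, squares are Ctsk-Cre;Ano1fl/fl arrays, and open symbols mark a genotype in which no array exceeded background clearly. No gene's genotypes overlap, and the Ano1fl/fl arrays of Ccl24, Ackr3, Ccl2 and Ccl7 spread the most.

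The ligands of Cxcr3, which interferon gamma induces and which attract T and natural killer cells, did not move together. Cxcl9 was 6.82, 7.20 and 7.10 in Ano1fl/fl and 8.61, 8.06 and 8.35 in Ctsk-Cre;Ano1fl/fl, a rise of 2.46-fold (1.30 ± 0.17, adjusted p = 0.0012). Cxcl10 was 13.88, 14.98 and 15.00 against 13.87, 13.66 and 13.99. The first Ano1fl/fl array lay among the Ctsk-Cre;Ano1fl/fl arrays and the other Ano1fl/fl arrays above them, and the difference missed the threshold (-0.78 ± 0.31, adjusted p = 0.075). Without that array it was -1.15 (adjusted p = 0.00194), and a dimmer Cxcl10 probe passed with all arrays in place (-1.29 ± 0.34, adjusted p = 0.0202). Over the alternative settings the difference of the brightest probe ranged from -1.15 to -0.59, and it did not pass under most of them. Cxcl11 was 15.81, 15.74 and 15.73 against 15.79, 15.98 and 15.72, with overlapping genotypes and a difference of 0.07 ± 0.09 (adjusted p = 0.56).

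Cxcr3, their receptor, was 8.78, 8.67 and 8.78 in Ano1fl/fl and 7.92, 7.81 and 8.26 in Ctsk-Cre;Ano1fl/fl and fell 1.68-fold (-0.75 ± 0.13, adjusted p = 0.00397). The 7 T and natural killer cell markers were mixed, with Klrb1c (2.66 ± 0.14), Ncr1 (2.17 ± 0.27) and Cd2 (1.97 ± 0.37) higher and Nkg7 (-1.77 ± 0.17) and Cd3e (-0.51 ± 0.10) lower. A second Cd3e probe did not pass the test (-0.06 ± 0.14, adjusted p = 0.754). Among all genes tested 23.0% rose and 28.5% fell. The summed intensity of the 7 markers was 3038 to 3373 in Ano1fl/fl and 1967 to 3673 in Ctsk-Cre;Ano1fl/fl. Their part in the Cxcr3 value was not tested.

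Cxcl12, the stromal ligand that keeps blood progenitors in the marrow, rose while its signalling receptor fell. Cxcl12 was 6.08, 5.86 and 5.15 in Ano1fl/fl and 9.44, 8.94 and 8.38 in Ctsk-Cre;Ano1fl/fl, with no overlap although both genotypes were spread (9.35-fold, 3.23 ± 0.33, adjusted p = 0.000515). A second Cxcl12 probe was below background on every Ano1fl/fl array and was at least 6.72-fold higher. Ackr3, the atypical receptor that scavenges Cxcl12, was 3.60, 4.21 and 2.47 against 5.25, 5.17 and 4.85. Only 1 Ano1fl/fl array was well above background for it, and the rise (3.17-fold, 1.66 ± 0.42) had an adjusted p of 0.0167, which became 0.0526 without the first Ctsk-Cre;Ano1fl/fl array. Under normexp correction the difference was 0.37.

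Cxcr4, the receptor through which Cxcl12 signals, was 11.57, 11.11 and 11.22 in Ano1fl/fl and 10.39, 10.13 and 10.23 in Ctsk-Cre;Ano1fl/fl. It fell 2.07-fold with no overlap (-1.05 ± 0.14, adjusted p = 0.00138), and a second probe fell by 1.16 ± 0.18. Among the stromal markers beside this result, Col1a1 (6.12 ± 0.24) and Pdgfrb (3.85 ± 0.26) rose and Thy1 did not pass the test (0.21 ± 0.16). The part of stromal cells in the Cxcl12 and Ackr3 values was not tested.

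Cxcl13 and Cxcr5, the pair that gathers B cells into follicles, rose together. Cxcl13 was 1.92, 3.17 and 3.22 in Ano1fl/fl, near background, and 9.71, 8.66 and 8.16 in Ctsk-Cre;Ano1fl/fl. It was at least 29.3-fold higher (adjusted p = 0.000214). Without the first Ctsk-Cre;Ano1fl/fl array the limit was 21.9-fold, and under normexp correction the difference was smaller still. Cxcr5 was 7.65, 7.71 and 7.52 against 10.75, 10.21 and 11.27, an 8.68-fold rise (3.12 ± 0.26, adjusted p = 0.000215). The B cell markers Cd79a (2.79 ± 0.26) and Cd22 (2.17 ± 0.20) were higher on the same arrays. Their part in the rise of Cxcr5 was not tested.

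Cxcl16, a membrane-bound ligand and scavenger receptor of macrophages, and its receptor Cxcr6 went opposite ways at its brightest probe. Cxcl16 was 12.92, 12.88 and 12.82 in Ano1fl/fl and 12.39, 12.20 and 12.08 in Ctsk-Cre;Ano1fl/fl, a fall of 1.57-fold (-0.65 ± 0.10, adjusted p = 0.00232). A second Cxcl16 probe overlapped between the genotypes and gave -0.12 ± 0.19 (adjusted p = 0.599), so the fall rests on 1 of 2 probes. Cxcr6, found on memory T cells and natural killer cells, was 8.03, 8.10 and 8.33 against 9.42, 9.42 and 9.79 (2.62-fold higher, 1.39 ± 0.14, adjusted p = 0.000421), and its second probe rose by 1.56 ± 0.20. Cxcl14, a chemokine of epithelial and stromal tissue, rose 1.94-fold (0.96 ± 0.17, adjusted p = 0.0048).

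Among the monocyte chemoattractants, Ccl2 and Ccl7 rose and their receptor Ccr2 fell, while Ccl12 and Ccl8 did not pass the test. Ccl2, the principal ligand of Ccr2, was 12.56, 14.05 and 13.48 in Ano1fl/fl and 15.71, 15.60 and 15.65 in Ctsk-Cre;Ano1fl/fl. The scattered control arrays stayed below the tight group of Ctsk-Cre;Ano1fl/fl arrays (4.88-fold higher, 2.29 ± 0.35, adjusted p = 0.00239). Ccl7 was 9.96, 11.79 and 11.19 against 13.73, 13.83 and 13.70, with the same first control array lowest (6.83-fold higher, 2.77 ± 0.43, adjusted p = 0.00252). Ccl12, another mouse ligand of Ccr2, was 10.46, 11.83 and 11.58 against 11.39, 10.82 and 11.66 and overlapped throughout (0.00 ± 0.39, adjusted p = 0.998). Ccl8, which in the mouse acts on Ccr8, was 10.98, 10.39 and 10.26 against 11.81, 9.73 and 10.02, with overlap (-0.03 ± 0.55, adjusted p = 0.974). The first Ctsk-Cre;Ano1fl/fl array was the highest, and without it the difference was -0.67 (adjusted p = 0.0697).

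Ccr2, which brings monocytes and osteoclast precursors out of the marrow into blood and inflamed tissue, was 11.64, 11.91 and 12.33 in Ano1fl/fl and 8.66, 8.32 and 8.82 in Ctsk-Cre;Ano1fl/fl. It fell 10.3-fold (-3.36 ± 0.21, adjusted p = 7.42e-05). Of 11 monocyte and macrophage markers tested, 2 rose and 4 fell, near the 23.0% and 28.5% of all genes tested. Ly6c2, a marker of the Ccr2-bearing monocyte, fell (-1.42 ± 0.15), while Csf1r, the receptor of M-CSF that the whole lineage carries, gave -0.04 ± 0.08 (adjusted p = 0.743). The 2 that rose were the scavenger receptor Marco (3.01 ± 0.11) and the macrophage marker Adgre1 (0.80 ± 0.09). The summed intensity of this list was 653820 to 673460 in Ano1fl/fl and 633130 to 702310 in Ctsk-Cre;Ano1fl/fl, and its 11 genes were all well above background on every array. The part of a loss of monocytes in the Ccr2 value was not tested.

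The inflammatory CC ligands split by gene. Ccl3, also called macrophage inflammatory protein 1 alpha and known to promote osteoclast formation, was 12.59, 12.51 and 12.41 in Ano1fl/fl and 15.22, 15.32 and 15.15 in Ctsk-Cre;Ano1fl/fl, and rose 6.63-fold with little scatter (2.73 ± 0.09, adjusted p = 1.05e-05). Ccl4, its neighbour and close relative, was 12.42, 12.68 and 12.66 against 16.13, 16.32 and 16.26. It rose 12.6-fold (3.65 ± 0.10, adjusted p = 6.98e-06), and a second probe rose by 3.60 ± 0.11. Ccl5, a T cell and platelet product, fell 1.79-fold (-0.84 ± 0.11, adjusted p = 0.0013). Ccl6 fell 1.56-fold (-0.65 ± 0.13, adjusted p = 0.0076) and Ccl9, which osteoclasts themselves secrete, fell 1.30-fold from 16.46, 16.62 and 16.55 to 16.11, 16.27 and 16.12 (-0.38 ± 0.09, adjusted p = 0.0111).

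Ccr1, the receptor of Ccl3, Ccl6 and Ccl9, was below background on all Ano1fl/fl arrays and above it on 2 Ctsk-Cre;Ano1fl/fl arrays (processed signals 8.91, 8.04 and 12.6 against 14.7, 22.8 and 17.6), and it was not tested. Its relative Ccr1l1 was below background on every array.

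Ccl24 and its receptor Ccr3, known from eosinophils, moved apart. Ccl24 was 6.25, 7.82 and 8.47 in Ano1fl/fl, a wide spread, and 3.75, 2.79 and 3.29 in Ctsk-Cre;Ano1fl/fl, where no array was well above background. With all arrays in place it was at least 11.2-fold lower (adjusted p = 0.00144). When each array was left out in turn, this limit ranged from 8.002-fold without the third Ano1fl/fl array to 17.4-fold without the first. Ccr3 was 8.29, 8.59 and 8.41 against 9.65, 10.08 and 9.88, a rise of 2.72-fold (1.44 ± 0.14, adjusted p = 0.000367). The other eotaxins Ccl11 and Ccl26 were below background on every array.

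Ccr4, Ccr7 and Ccr8, receptors that guide lymphocytes and dendritic cells, were higher. Ccr7, which takes dendritic and T cells to lymph nodes, was 12.68, 12.56 and 12.52 in Ano1fl/fl and 13.49, 13.01 and 13.69 in Ctsk-Cre;Ano1fl/fl (1.75-fold higher, 0.81 ± 0.18, adjusted p = 0.00937). Its ligand Ccl19 was 4.73, 4.33 and 4.83 against 2.57, 1.75 and 2.70, below background in Ctsk-Cre;Ano1fl/fl, and was at least 1.54-fold lower (adjusted p = 0.000859). Its other ligand Ccl21a was below background throughout. Ccl19, Ccl21a and Ccl27a have near-identical copies in the mouse genome that a probe may not separate. Of 6 dendritic cell markers tested, 2 rose and 1 fell (23.0% and 28.5% of all genes tested), with a summed intensity of 33419 to 36117 against 34413 to 47901.

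Ccr4, a receptor of skin-homing and helper T cells, was 1.77, 2.09 and 1.71 in Ano1fl/fl, below background, and 4.57, 4.58 and 4.57 in Ctsk-Cre;Ano1fl/fl, just above it. It was at least 1.52-fold higher (adjusted p = 1.93e-05). A second Ccr4 probe was below background on every array, so the rise rests on the brightest probe alone. The Ccr4 ligands Ccl17 and Ccl22 were too dim to test. Ccr8 rose 1.59-fold (0.67 ± 0.21, adjusted p = 0.0379), the weakest of the calls, with 1 Ano1fl/fl array above background. It lost the call under 9 alternative settings. Under normexp correction it gave 0.15 (adjusted p = 0.0907), with the values of the deposited table it gave 0.16 (adjusted p = 0.211), and its adjusted p was between 0.0675 and 0.103 without replicate 1 or 2 of Ano1fl/fl or without replicate 1 or 3 of Ctsk-Cre;Ano1fl/fl. Ccl1, a ligand of Ccr8, fell 1.85-fold (-0.89 ± 0.11, adjusted p = 0.00122). That direction turned to 0.57 (adjusted p = 0.0407) when both Ccl1 probes were averaged, the second of which was above background on 1 array alone.

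Ccl20 and Ccr6, the pair that recruits Th17 cells, B cells and dendritic cells to epithelia, both rose. Ccl20 was 1.71, 1.69 and 1.69 in Ano1fl/fl, at the floor of the array, and 8.71, 8.19 and 7.73 in Ctsk-Cre;Ano1fl/fl. It was at least 18.9-fold higher (adjusted p = 1.28e-05). Ccr6 was 8.59, 8.43 and 8.46 against 11.65, 11.31 and 11.89, an 8.73-fold rise (3.13 ± 0.15, adjusted p = 3.41e-05). Ccr6 is also a receptor of mature B cells, and the part of the B cell markers in its rise was not tested.

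The thymus and gut ligand Ccl25 rose 1.27-fold (0.35 ± 0.08, adjusted p = 0.0121). Of its 2 dimmer probes that were tested, 1 rose (0.68 ± 0.10) and 1 did not pass the test (-0.10 ± 0.21). Its receptor Ccr9 was 8.36, 8.71 and 8.72 against 8.92, 8.17 and 9.22, with overlap (0.17 ± 0.27, adjusted p = 0.62). The skin ligand Ccl27a gave 0.05 ± 0.09 (adjusted p = 0.654), and 2 further probes gave 0.02 ± 0.09 and 0.05 ± 0.14. Ccr10, its receptor, was 4.12, 4.79 and 3.40 against 4.95, 4.41 and 5.34 (0.80 ± 0.39, adjusted p = 0.129), and passed only without the second Ano1fl/fl array (1.13, adjusted p = 0.0445).

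Cx3cr1, the fractalkine receptor of monocytes and osteoclast precursors, had the largest fall of the members that exceeded background in both genotypes. It was 14.37, 14.16 and 14.04 in Ano1fl/fl and 10.13, 9.34 and 9.22 in Ctsk-Cre;Ano1fl/fl, a 24.6-fold difference with the genotypes far apart (-4.62 ± 0.25, adjusted p = 4.66e-05). A second Cx3cr1 probe fell by 4.52 ± 0.28. Its membrane-bound ligand Cx3cl1 was 7.34, 7.10 and 7.14 against 6.38, 6.31 and 6.11 and fell 1.90-fold (-0.93 ± 0.11, adjusted p = 0.000873). Xcl1, lymphotactin of T and natural killer cells, was 6.81, 6.88 and 6.81 against 9.16, 8.69 and 9.38 and rose 4.73-fold (2.24 ± 0.18, adjusted p = 0.000182). Its receptor Xcr1, a marker of cross-presenting dendritic cells, was below background on every array.

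Of the other 4 atypical receptors, 3 were tested. Ackr2, the scavenger of inflammatory CC chemokines such as Ccl2 and Ccl3, was 4.13, 4.47 and 3.81 in Ano1fl/fl and 7.32, 6.45 and 7.67 in Ctsk-Cre;Ano1fl/fl, an 8.04-fold rise (3.01 ± 0.33, adjusted p = 0.000648). Only 2 Ano1fl/fl arrays were well above background for it, and a second Ackr2 probe was below background on every array. Ccrl2, which binds chemerin and does not signal, was 10.08, 10.42 and 10.46 against 12.36, 12.38 and 12.29, with the Ctsk-Cre;Ano1fl/fl arrays almost equal (4.08-fold higher, 2.03 ± 0.12, adjusted p = 6.25e-05). Ackr1, the Duffy receptor of red cell precursors and venules that holds CC and CXC ligands, went the other way. It was 6.62, 6.74 and 6.86 against 4.53, 4.73 and 4.22 (4.75-fold lower, -2.25 ± 0.14, adjusted p = 8.65e-05), and its second probe was at least 4.06-fold lower. Of 5 endothelial markers tested beside it, 1 rose and 2 fell (23.0% and 28.5% of all genes tested), with a summed intensity of 6111 to 7722 against 2923 to 3517, and Tek was below background throughout. Their part in the Ackr1 value was not tested. Ackr4 was above background on 2 Ctsk-Cre;Ano1fl/fl arrays alone and was not tested.

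Altogether 12 genes were too dim to test. Ccr1l1, Ccl11, Ccl21a, Ccl22, Ccl26, Xcr1, Cxcl15 and Cxcl17 were below background on all 6 arrays. Ccr1, Ackr4, Ccl17 and Ccl28 were above it on 1 to 3 arrays. Of the 24 dimmer probes of members with several probes, 15 were tested. Of these, 9 passed in the same direction as the brightest probe, 3 failed as it did, and 3 differed in the call (Cxcl10, Ccl25 and Cxcl16). None passed in the opposite direction.

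Ligands were set beside a main textbook receptor, which gave 21 pairs (chosen after the values were seen). Cxcr2, Cxcr3 and Ccr2 each appear in several of them. In 16 pairs both genes passed the test. The ligand was higher and the receptor lower in 8 of them, the ligand lower and the receptor higher in 4, both higher in 2 and both lower in 2. The 8 were Cxcl1, Cxcl2, Cxcl3 and Cxcl5 with Cxcr2, Ccl2 and Ccl7 with Ccr2, Cxcl9 with Cxcr3 and Cxcl12 with Cxcr4. The 4 were Cxcl16 with Cxcr6, Ccl24 with Ccr3, Ccl19 with Ccr7 and Ccl1 with Ccr8. Among these, the calls of Cxcl16, Ccl1 and Ccr8 depended on the probe or the setting, as given above. Cxcl13 with Cxcr5 and Ccl20 with Ccr6 rose together. Ppbp with Cxcr2 and Cx3cl1 with Cx3cr1 fell together. Pairs that share a receptor are not independent of one another. These counts carry no test and stand beside 25 higher and 18 lower among the 50 members tested and 23.0% and 28.5% among all genes tested.

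**Figure D3:**
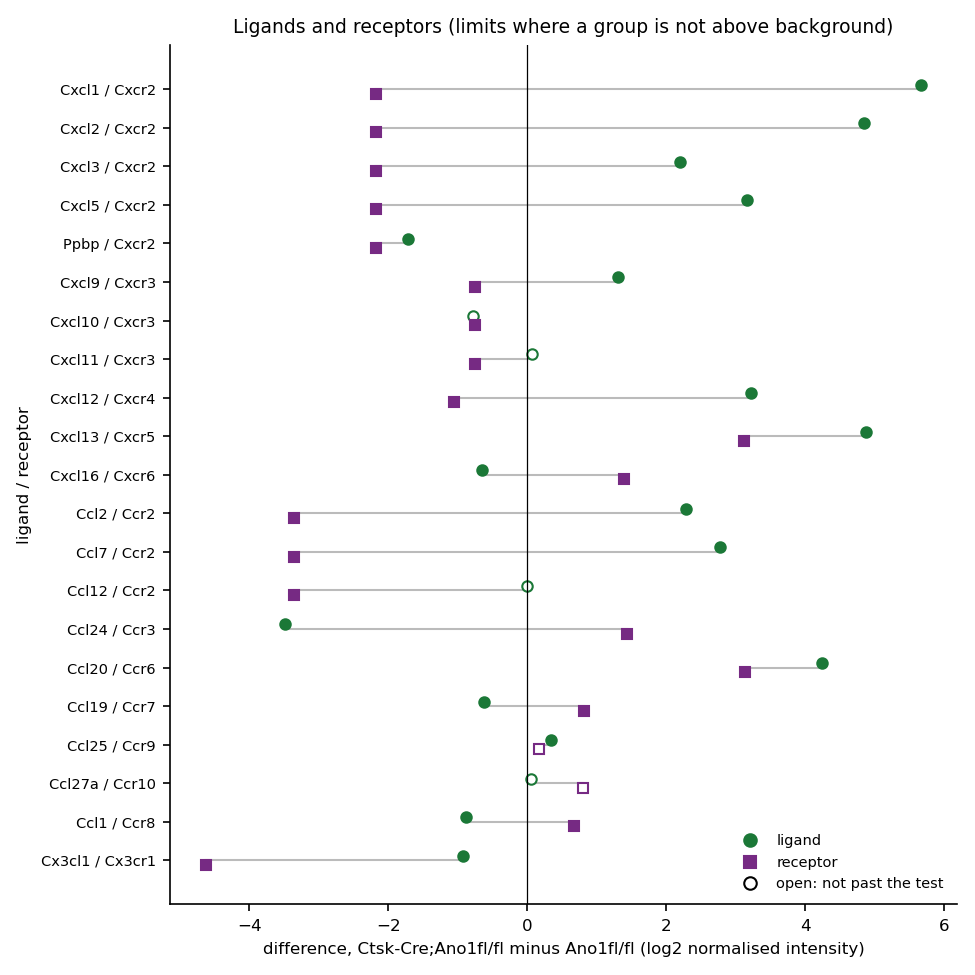
Differences in 21 pairs of a ligand and a receptor. The x axis is Ctsk-Cre;Ano1fl/fl minus Ano1fl/fl in log2 normalised intensity, circles are ligands, squares are receptors, open symbols did not pass the test, and genes below background in 1 genotype stand at their limit. The widest gap is that of Cxcl1 (5.67) and Cxcr2 (-2.17), and Cxcl13 with Cxcr5 and Ccl20 with Ccr6 lie together on the right.

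Many of these genes lie in clusters, which held adjacent genes that changed alike and others that did not. The rises and falls in them stand beside 25 and 18 of the 50 members tested and 23.0% and 28.5% of all genes tested. Positions are those of the probes as the array files give them (mm9). In the CXC ligand cluster on chromosome 5, from Cxcl5 (chr5:91190490-91190549) to Cxcl2 (chr5:91334534-91334593), 4 of 6 tested genes rose and 2 fell within 144 kb. Ppbp and Pf4, the genes that fell, lie 8.48 kb and 11.8 kb beyond Cxcl5, between it and Cxcl3 at 26.2 kb. On chromosome 11, Ccl2 and Ccl7 are 10 kb apart and rose by like amounts, while Ccl12 at 66.1 kb and Ccl8 at 79.5 kb did not pass the test and Ccl1 at 139.8 kb fell. Further along the same chromosome, Ccl5, Ccl9 and Ccl6 fell and Ccl3 and Ccl4, 122 kb and 139 kb from Ccl5, rose. In the receptor cluster on chromosome 9, over the 333 kb from Ccr9 to Ccr2, Cxcr6 and Ccr3 rose, Ccr2 fell, Ccr9 did not pass the test, and Xcr1, Ccr1 and Ccr1l1 were too dim.

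**Figure D4:**
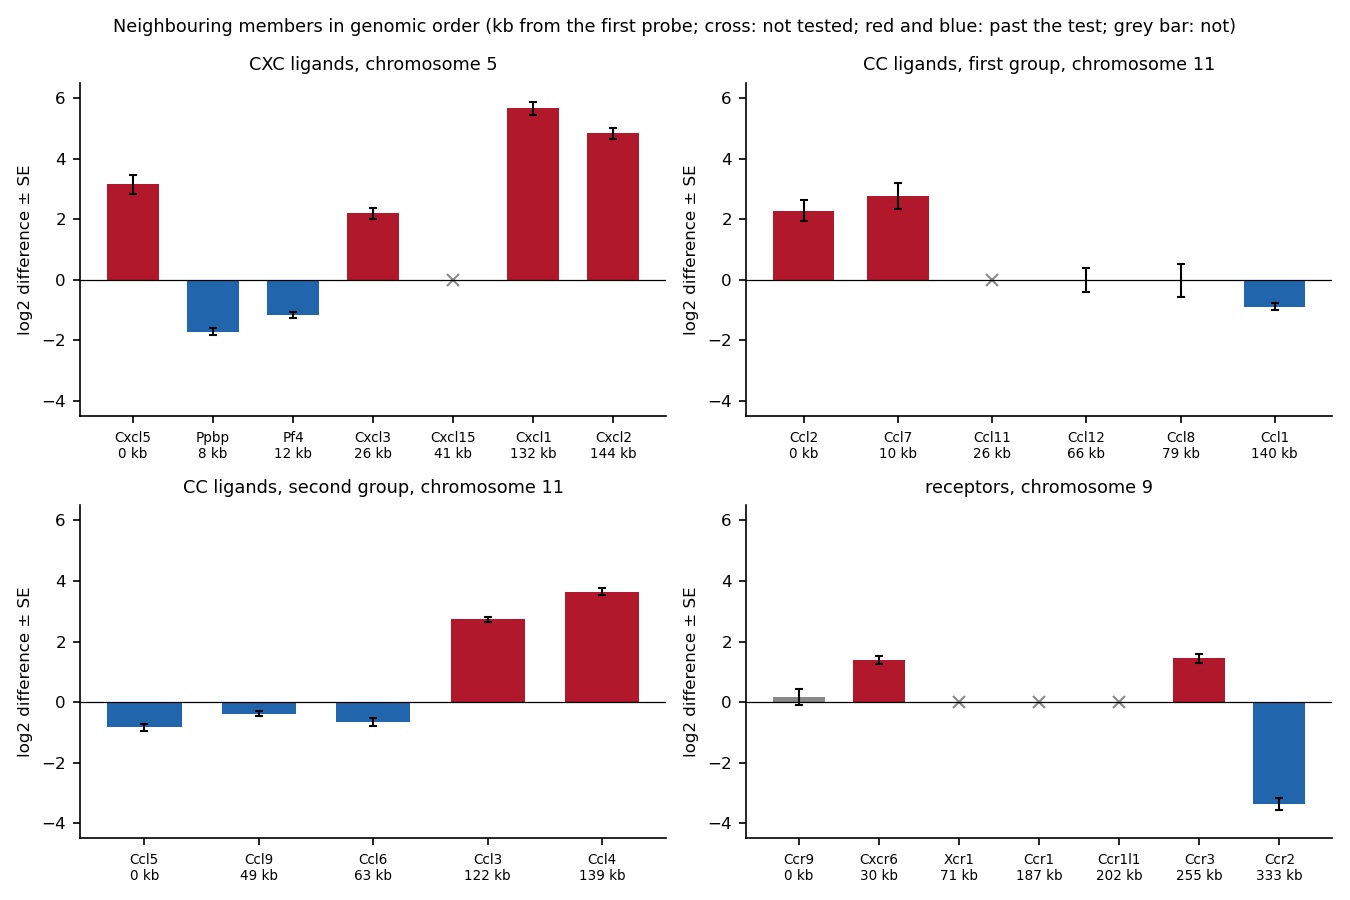
Differences of neighbouring chemokine and receptor genes in genomic order. The y axis is Ctsk-Cre;Ano1fl/fl minus Ano1fl/fl in log2 normalised intensity with standard errors, the labels give the distance from the first probe in kb, and crosses mark genes that were not tested. Ppbp (-1.72) and Pf4 (-1.16) fell between Cxcl5 (3.16) and Cxcl3 (2.20).

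Genes that act upstream of chemokines were taken from a list of cytokines, transcription factors and restraints of the inflammatory response. Of 28 tested, 16 rose and 5 fell, beside 23.0% and 28.5% of all genes tested, with a median difference of 0.54 beside -0.06 over all genes tested. The largest rises were those of Il1a, at least 27.7-fold, Il6 (4.49 ± 0.08) and Tnf (4.23 ± 0.13), cytokines that induce Cxcl1, Cxcl2 and Ccl20 in many cells. Fos, a subunit of AP-1, was the sole gene to fall past 2-fold (-1.52 ± 0.09). Their part in the chemokine values was not tested.

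Genes that act downstream of the receptors were also listed. Of 34 tested genes of Gi signalling, adhesion kinases and Rac control, 12 rose and 7 fell, with a median difference of 0.09. Among all genes tested 23.0% rose and 28.5% fell, as given above. Past 2-fold, the kinase Src (2.01 ± 0.16) and the GTPase Rac2 (1.07 ± 0.10) rose, and Tiam1, an activator of Rac, fell (-1.74 ± 0.15). Of 8 regulators of G protein signalling, which shorten the signal of chemokine receptors, 1 rose and 3 fell. Rgs16 rose (3.63 ± 0.33), and Rgs2 (-1.87 ± 0.11) and Rgs18 (-1.20 ± 0.11) fell past 2-fold.

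Of 12 proteases that cut or shed chemokines, 6 rose and 4 fell, beside 23.0% and 28.5% of all genes tested, with a median difference of 0.37 beside -0.06. Mmp2 was at least 25.0-fold higher, and Mmp9 (4.36 ± 0.17) and Dpp4 (3.21 ± 0.25), which inactivates Cxcl12, also rose. The neutrophil granule proteases Prtn3 (-3.46 ± 0.32), Ctsg (-3.40 ± 0.26) and Elane (-3.25 ± 0.22) fell, while Mmp8, the neutrophil collagenase, rose (0.76 ± 0.09). Ctsg and Elane cleave Cxcl12, and Ctsg also cuts the Ppbp product into its active form. Mmp9 is counted among the osteoclast markers and Elane among the neutrophil markers too.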

How the data were processed

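RNA from 6 osteoclast cultures, 3 per genotype, was hybridised to Agilent SurePrint arrays. The authors deposited the scanner files of Agilent Feature Extraction 10.7.1.1 (per the labels), whose processed signal is an intensity after background subtraction. The deposited value table, on a linear scale, equals the median intensity of each spot with no background subtraction (array medians 57 to 65) and served as an alternative after log2 and the same steps. Outlier spots were left out, log2 intensity was quantile normalised as the methods state, spots of a probe were averaged, and 14 probes without a value on some array were dropped. Probes well above background on all 3 arrays of a genotype (at least 0.5 of their spots) were fitted with limma 3.58.1 in R 4.3.3, with Benjamini-Hochberg adjustment and no replicate block. On simulated data (31848 probes, 200 changed), 63% of 2-fold and 87% of 4-fold changes were recovered, with 10 false calls. The real fit called 16690 probes, which moves the adjusted threshold, so these shares do not give the recovery in this comparison. A gene was counted by its brightest probe. The counts include 1 member whose own values are not reported here. Array values were given for members past the test and 2-fold and for their paired ligands or receptors, and those of Cxcl10, Cxcl11, Ccl8, Ccl9, Ccr1, Ccr9 and Ccr10 were added after their values were seen. Of each related list, the 3 largest rises and falls past both were named. The members and lists were chosen with earlier results of these data known. Of the 86 probes, 77 matched a current RefSeq accession, all with the symbol of the array. Summaries and figures used Python 3.11.15 and pandas 2.3.3. The arrays' number limits the precision. The alternatives were other scalings, background corrections, filters, probe choices, tests and folds, the replicate block, and leaving out each array.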

Additional observations from a re-analysis of the deposited data

How the results depend on the processing

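In the 17 alternative fits and 2 other fold limits, the 50 tested genes gave 840 values, of which 817 kept their direction and their side of the threshold, 15 lost a call, 7 gained one and 1 reversed. The reversed value was Ccl1 at 0.57 (mean of all probes). The count past 1.5-fold was 24 higher and 17 lower, against 21 and 11 past 2-fold and 18 and 9 past 3-fold. Leaving out each array in turn gave 24 to 26 genes higher and 18 to 19 lower, and 21 to 22 and 10 to 11 past 2-fold. Cxcl10 gained a call under 6 settings, Ccr8 lost it under 9, Ackr3 under 3, and Ccr10, Ccl25, Cxcl14 and Cxcl16 changed under 1 each. Normexp correction kept 27 of the 32 genes past 2-fold (Ackr3, Ccl19, Ccr4, Cxcl9 and Cxcr1 were lost), and requiring signal on all 6 arrays kept 25, since dim genes were not tested. The cause of the other changes was not tested. Arrays with the same replicate number did not deviate together (correlations -0.02, -0.08 and -0.09), so the numbers were not taken as pairs. With the replicate block, 25 genes were higher and 18 lower, with the same 32 past 2-fold. Low signal limits most the 12 untested genes and the 5 with lower limits.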

Other observations

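Receptors and ligands for other chemoattractants were listed beside the chemokines, and 17 of the 19 on the array were tested. Of these, 5 rose and 6 fell, beside 23.0% and 28.5% of all genes tested, with a median difference of -0.21 beside -0.06 over all genes tested. Fpr1, the receptor for bacterial formyl peptides (2.89 ± 0.14, limma adjusted p = 2.86e-05), S1pr3, a receptor for sphingosine 1-phosphate (2.30 ± 0.10), and Rarres2, the chemerin ligand of Ccrl2 (2.26 ± 0.19), had the largest rises. The complement C5a receptors C5ar2 (-1.49 ± 0.10) and C5ar1 (-1.06 ± 0.11) and the platelet-activating factor receptor Ptafr (-1.46 ± 0.10) had the largest falls. Cmklr1, the signalling receptor of chemerin, gave -0.21 ± 0.14 (adjusted p = 0.246).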
